A study of Mus musculus with 2 samples.

Results

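The IL-6 family of cytokines and receptors is described here across the cell classes of MC38 tumours with and without UBD overexpression. It comprised 10 of the 31053 genes in the tables, matched by symbol in both libraries. These were the ligands Il11, Il6, Lif and Osm, the receptor chains Il6st, Il6ra, Il11ra1, Osmr and Lifr, and the feedback inhibitor Socs3. The genes were chosen from the family with results of these same libraries already known, the low level of Il11 in UBD tumour cells among them. The differences between the libraries are therefore given as descriptions.

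The study compared 1 library of subcutaneous tumour tissue from mouse MC38 colon carcinoma cells overexpressing UBD with 1 library of control tumour tissue, both read out as single cells in droplets by their transcripts' 3′ ends. UBD (ubiquitin D, FAT10) can be joined to other proteins and targets them to the proteasome. For the vector, the mouse strain, the time of growth and the number of pooled animals nothing is given in the sources used here. With 1 library per group there is no replicate check, and every interval below is a 95% interval that covers counting error only.

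Cells were put in classes by unique molecular identifiers (UMIs) of 1 marker each. The UBD library gave 8090 tumour cells (Cdkn2a), 1760 macrophages (C1qa), 144 monocytes (Ly6c2), 228 T cells (Cd3e), 174 fibroblasts (Dcn) and 15 endothelial cells (Cdh5). The control library gave 5315 tumour cells, 1607 macrophages, 1840 monocytes, 219 T cells, 142 fibroblasts and 28 endothelial cells. A further 2646 UBD cells and 4672 control cells passed no class rule, or the rules of 2 classes. Median depth in tumour cells was 17051 UMIs in the UBD library and 19528 in the control library, and in macrophages 5749 and 4029 UMIs. The submitters describe goblet cells, but of 5 goblet cell genes (Muc2, Fcgbp, Clca1, Spink4, Tff3) none had more than 5 UMIs in the tumour class of either library. The class is called tumour for Cdkn2a and for its Y-linked transcripts, which summed to 0.749 CPM in UBD and 1.98 CPM in control tumour cells, where the macrophages had 96.5 and 100.6 CPM. The fibroblast class had 68.7 CPM of them in UBD and 53.9 CPM in control. MC38 cells carry Dcn too, and the part of tumour cells in the fibroblast class was not tested. CPM is the count of a gene's UMIs in each 1000000 UMIs of the summed class. Ubd itself was 1.16 CPM in UBD tumour cells and 0.365 CPM in control tumour cells, from 184 and 47 UMIs, and a transgene without the native 3′ end would not be counted there. The UBD monocyte class was a mixture, with the T cell gene Cd3d at 520 CPM against 94.7 CPM in control monocytes, and with Siglech, a plasmacytoid dendritic cell gene, at 119 CPM against 32.9 CPM. Gm42418, a transcript that overlaps ribosomal RNA sequence and often tracks RNA quality, was lower in the UBD library in every class, at 1025 CPM against 2877 CPM in tumour cells and 2814 CPM against 11608 CPM in macrophages. The libraries shared 71 cell barcodes.

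The cytokines encoded by Il11, Il6, Lif and Osm all signal through gp130, the receptor chain encoded by Il6st. IL-6 and IL-11 first bind a chain of their own (Il6ra, Il11ra1), whereas LIF and oncostatin M, the product of Osm, bring gp130 together with the LIF receptor or the oncostatin M receptor. The joined receptors activate JAK kinases and STAT3, and STAT3 induces Socs3, whose product binds gp130 and shuts the signal off. In the colon, IL-11 is mainly known as a product of stromal cells that promotes tumour growth in mice.

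The bases before the transcription start of 3 ligand genes and of Socs3 are shown because they hold motifs of factors known to drive these genes. RefSeq windows on GRCm38.p6, from 250 bases before to 50 after each start, were found for 9 of the 10 genes, 12 windows in all. The AP-1 motif TGANTCA lay in windows of Il11, Il6, Lif and Osmr, and in 7.81% of all 32851 windows. The STAT motif TTCNNNGAA lay in the Socs3 window, the single member with it, and in 8.30% of all windows. Both strands were searched for these and for 5 other motifs. The C/EBP motif TTGCNCAA (2.94% of all windows) and the longer NF-kB motif searched (0.411%) lay in Il6, and the TEAD motif GGAATG (14.7%) lay in a window of Il11ra1. The cAMP response element TGACGTCA (1.79%) and the shorter NF-kB motif GGGANTTCC (1.68%) lay in no member window. No motif found in a member overlapped another. A match of letters is a description and not a bound site. The 250 bases before the start are printed 5′ to 3′ with the motifs in capitals, for Il11 at chr7:4778142-4778391 (minus strand), Lif at chr11:4257318-4257567 (plus), Il6 at chr5:30012864-30013113 (plus) and Socs3 at chr11:117969367-117969616 (minus). In Il11, the AP-1 motif began 98 bases before this start, which lies inside the annotated gene, and the window of the other RefSeq start of the gene held none of the motifs. It began 228 bases before the start in Lif and 249 before it in Il6, and the STAT motif of Socs3 began 154 bases before the start.
Il11: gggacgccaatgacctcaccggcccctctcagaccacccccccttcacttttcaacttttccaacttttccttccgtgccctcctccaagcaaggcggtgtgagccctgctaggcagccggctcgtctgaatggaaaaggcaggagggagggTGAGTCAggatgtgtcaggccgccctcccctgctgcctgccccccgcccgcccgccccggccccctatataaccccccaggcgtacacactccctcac
Lif: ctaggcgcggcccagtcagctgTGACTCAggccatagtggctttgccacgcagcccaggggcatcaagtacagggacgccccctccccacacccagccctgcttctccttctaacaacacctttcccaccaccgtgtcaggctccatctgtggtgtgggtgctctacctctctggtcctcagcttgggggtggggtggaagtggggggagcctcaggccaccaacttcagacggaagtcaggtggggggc
Il6: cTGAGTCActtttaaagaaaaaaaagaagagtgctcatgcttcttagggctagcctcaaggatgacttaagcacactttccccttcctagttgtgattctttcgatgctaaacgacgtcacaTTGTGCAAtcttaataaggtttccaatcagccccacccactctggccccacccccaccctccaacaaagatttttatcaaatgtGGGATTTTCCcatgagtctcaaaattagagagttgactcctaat
Socs3: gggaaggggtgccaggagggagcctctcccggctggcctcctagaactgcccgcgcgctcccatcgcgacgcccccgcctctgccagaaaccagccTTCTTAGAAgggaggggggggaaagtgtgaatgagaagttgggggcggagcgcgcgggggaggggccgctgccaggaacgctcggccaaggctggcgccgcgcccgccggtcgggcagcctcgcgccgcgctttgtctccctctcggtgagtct

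Most Il11 UMIs came from tumour cells in both libraries, and in that class Il11 was the member that differed most between them. Of the library's Il11 UMIs, tumour cells held 94.1% in the UBD library and 94.0% in the control library. The gene (ENSMUSG00000004371) lies on chromosome 7, 4772373 to 4782859, on the minus strand of GRCm38. Tumour cells had 6.99 CPM (6.58 to 7.41) in the UBD library and 68.9 CPM (67.4 to 70.3) in the control library, from 1110 and 8870 UMIs. This is 9.86-fold lower in the UBD library (9.26 to 10.5). An Il11 UMI was seen in 236 of 8090 UBD tumour cells (2.92%) and in 1074 of 5315 control tumour cells (20.2%). With every cell thinned to 1000 UMIs (8076 UBD and 5295 control cells had that depth) the shares were 0.545% (0.396 to 0.731) in UBD and 3.76% (3.26 to 4.31) in control tumour cells. In macrophages, 0.114% of UBD cells and 1.37% of control cells had an Il11 UMI. The Il11 level of UBD macrophages was 2.63% (0.318 to 9.53) of that of UBD tumour cells, and of control macrophages 4.49% (2.84 to 6.74) of that of control tumour cells. Cdkn2a, the tumour marker, stood at 3.73% in UBD and 4.27% in control macrophages, both inside the intervals of Il11. Cells that passed the rules of both classes had been left out, which limits Cdkn2a in macrophages. Crabp1, a gene of tumour cells that set no class, stood at 5.45% (2.72 to 9.77) in UBD and 5.30% (4.08 to 6.77) in control macrophages. Crabp1 is not particular to tumour cells. It was 74.1 CPM in UBD and 95.2 CPM in control fibroblasts, where tumour cells had 18.5 CPM and 162 CPM.

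Few tumour cells carried most of the Il11 UMIs. The richest cell had 105 UMIs in the UBD library and 292 in the control library. Cells with 5 or more UMIs numbered 49 (0.606%) in the UBD and 298 (5.61%) in the control tumour class. The 20 richest cells held 55.1% of the Il11 UMIs in UBD and 30.6% in control tumour cells, and without them the levels were 3.15 CPM in UBD and 48.3 CPM in control. Socs3 was spread more evenly, with 6.29% of its UMIs in the 20 richest UBD cells and 6.25% in the 20 richest control cells.

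Lif (ENSMUSG00000034394, chromosome 11, 4257557 to 4272514, plus strand), which signals through Lifr and gp130, was also mostly a tumour cell transcript, with 78.1% of the UBD and 87.4% of the control UMIs in that class. Its level was 6.92 CPM (6.51 to 7.34) in UBD and 24.2 CPM (23.4 to 25.1) in control tumour cells, 3.50-fold lower in UBD (3.27 to 3.75). A Lif UMI was seen in 8.62% of UBD and 23.3% of control tumour cells, and after thinning in 0.483% and 2.42%. Lif in macrophages stood at 39.9% (26.8 to 57.3) of the tumour level in the UBD library and 19.4% (13.5 to 27.1) in the control library. H19, another gene of tumour cells, stood at 9.99% (8.53 to 11.6) in UBD and 19.1% (13.1 to 27.1) in control macrophages. The share of Lif lay above that of H19 beyond counting error in UBD but not in control macrophages. Other genes of tumour cells stood lower in control macrophages, Crabp1 at 5.30% (4.08 to 6.77), Cst6 at 5.99% (2.87 to 11.0) and Krt18 at 4.45% (1.21 to 11.4). Lif lay above each of these beyond counting error. The part of tumour cell RNA in macrophage Lif was not tested. Fibroblasts had the highest Lif level of the UBD classes, 39.7 CPM (30.7 to 50.6), where control fibroblasts had 23.6 CPM (15.7 to 34.1). In fibroblasts Lif was 1.69 times the control level in UBD cells (1.07 to 2.72), the opposite direction to tumour cells, from 66 and 28 UMIs. Of the 28 control UMIs, 53.6% came from 3 cells, and of the 66 UBD UMIs 27.3%.

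Il6 (ENSMUSG00000025746, chromosome 5, 30013114 to 30019981, plus strand), the cytokine that gives the family its name, was highest per UMI in fibroblasts in the UBD library. It reached 175 CPM (155 to 196) in UBD fibroblasts against 92.6 CPM (76.1 to 112) in control fibroblasts, 1.89-fold higher in UBD (1.51 to 2.37). After thinning, 17.3% of UBD and 9.93% of control fibroblasts had an Il6 UMI, a difference of 7.41 points whose interval reached from -0.381 to 14.9. In tumour cells Il6 was low in both libraries, at 1.2 CPM (1.03 to 1.38) in UBD and 4.32 CPM (3.96 to 4.69) in control, 3.61-fold lower in UBD (3.06 to 4.28). As the mean of the cells' own CPM its log2 ratio was -2.56 in place of -1.85, and without cells with 2 or more Cxcl10 UMIs it was -1.28. Monocytes had 17.3 CPM (7.45 to 34.0) in UBD and 17.9 CPM (14.7 to 21.7) in control, and these intervals overlap. Control endothelial cells had 93.8 CPM, the level of control fibroblasts within counting error, but from 20 UMIs of which 75.0% came from 3 cells. The 174 UBD fibroblasts held 49.5% of the library's Il6 UMIs, and the 142 control fibroblasts 10.9%. Tumour cells held 32.4% of the UBD and 55.0% of the control Il6 UMIs.

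Osm (ENSMUSG00000058755, chromosome 11, 4236420 to 4241026, plus strand) was a transcript of macrophages and monocytes. Macrophages had 135 CPM (128 to 142) in UBD and 170 CPM (161 to 179) in control, 1.26-fold lower in UBD (1.16 to 1.36). Monocytes had 171 CPM (135 to 213) in UBD and 370 CPM (355 to 385) in control, 2.17-fold lower in UBD (1.73 to 2.75). In control the monocyte level lay above that of macrophages beyond counting error, but in the UBD library the intervals of the monocyte and macrophage levels met. With the monocytes that carried Cd3d, Cd3g, Cd3e or Siglech left out, 72 UBD and 1667 control monocytes remained and the log2 ratio of Osm was -0.36 in place of -1.12. In tumour cells Osm was 0.780 CPM in UBD and 3.13 CPM in control, 4.01-fold lower in UBD (3.27 to 4.94), a log2 ratio of -2.93 as the mean of the cells' own CPM. An Osm UMI was seen in 40.3% of UBD and 41.8% of control macrophages, and after thinning in 11.2% (9.76 to 12.8) and 17.1% (15.3 to 19.1). The unthinned share in tumour cells was 1.26% in UBD and 5.40% in control. The Osm level of tumour cells was 0.577% of the macrophage level in UBD and 1.84% in control, where the macrophage gene C1qb stood at 0.257% and 0.379% and Apoe at 0.896% and 0.554%. The control share of Osm lay above both, and the part of other cells' RNA in it was not tested. Macrophages gave 57.4% of the library's Osm UMIs in UBD and 19% in control, and monocytes 3.08% and 33.7%. T cells had 18 Osm UMIs in UBD and 9 in control, and 3 cells held 61.1% of the UMIs in UBD T cells.

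**Figure D1:**
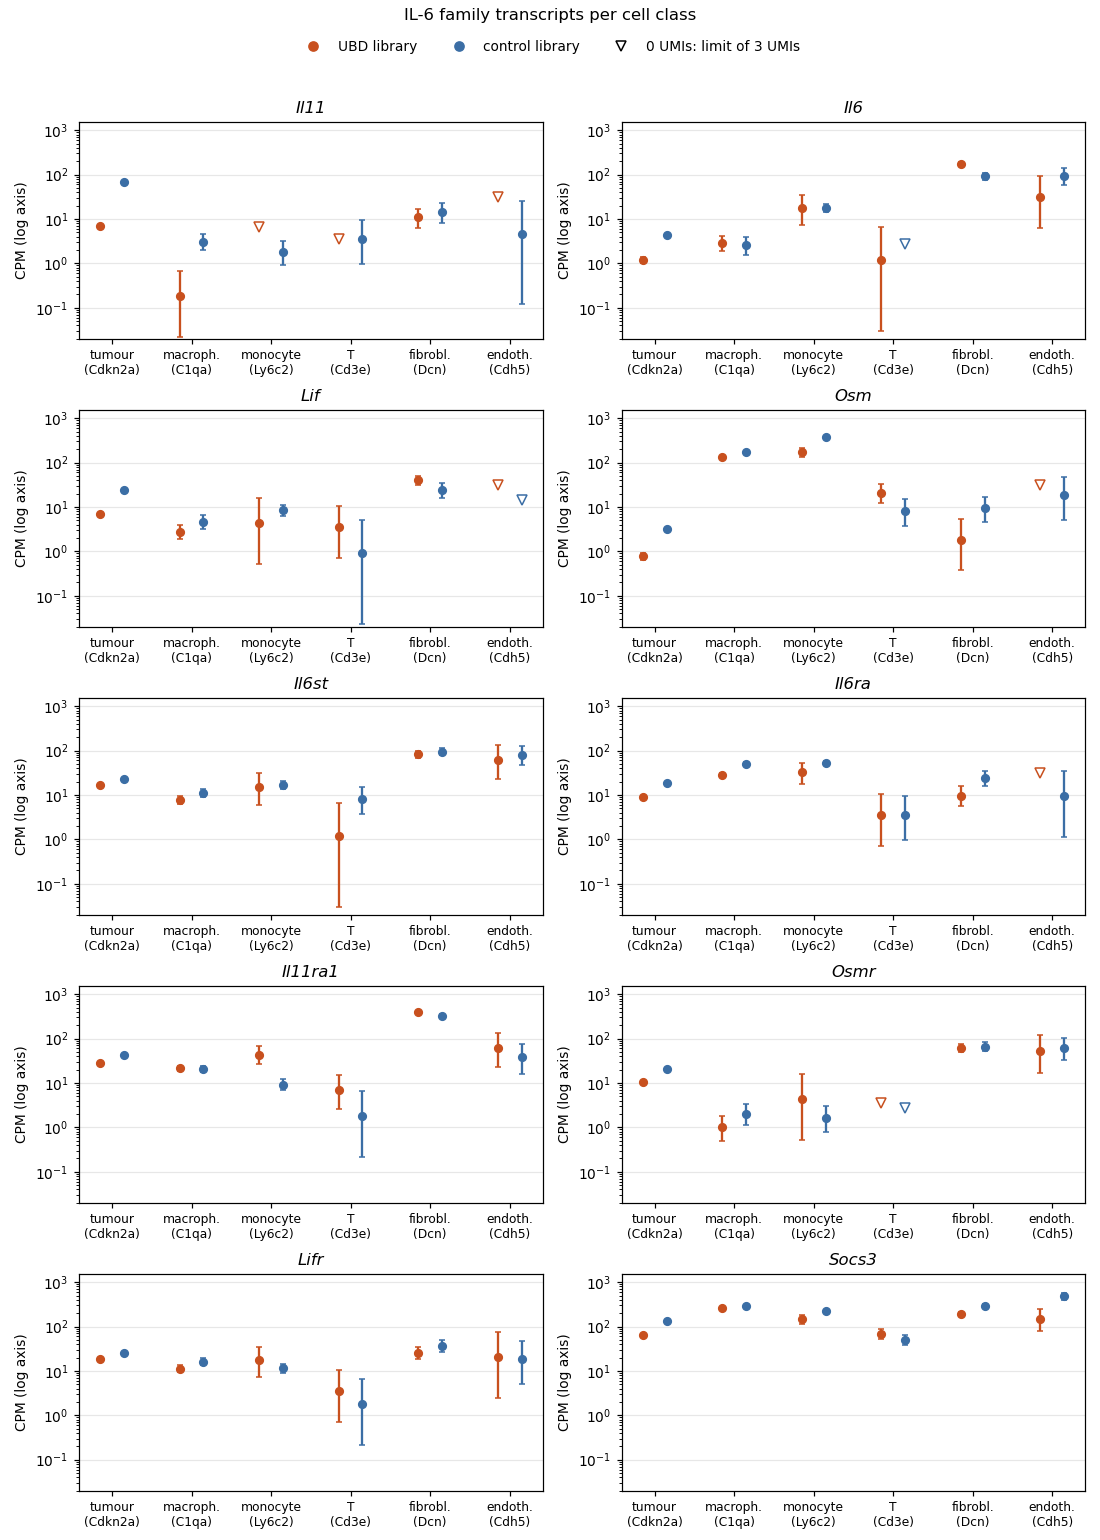
Level of each of the 10 family members in the 6 cell classes, in CPM of the summed UMIs on a log axis, with UBD (orange) left of control (blue) and 95% Poisson bars that cover counting error only. Open triangles stand at the limit of 3 UMIs where none was counted; Il11 is highest in control tumour cells (68.9 CPM), Osm in control monocytes (370 CPM) and Il6 in UBD fibroblasts (175 CPM).

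**Figure D2:**
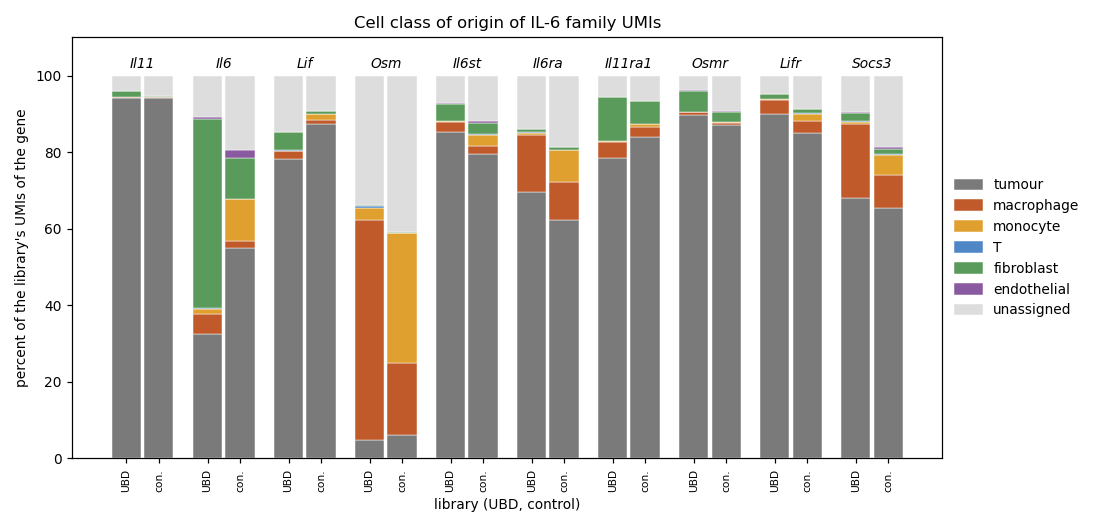
Percent of each library's UMIs of a member that came from each cell class, with the UBD bar left of the control bar. Tumour cells held 94.1% of Il11 UMIs in UBD and 94.0% in control, while the main source of Osm was macrophages in UBD (57.4%) and monocytes among the named classes in control (33.7%).

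The receptor chains were detected in tumour cells of both libraries, and Il6st, Il11ra1, Osmr and Lifr had their highest values in fibroblasts, though for Il6st, Osmr and Lifr the intervals of the few endothelial cells overlapped them. For Lifr in the UBD library those of tumour cells and monocytes overlapped too. Il6st (ENSMUSG00000021756, chromosome 13, 112464070 to 112510086, plus strand), the shared gp130 chain, was 16.6 CPM (16.0 to 17.2) in UBD and 22.9 CPM (22.1 to 23.7) in control tumour cells, 1.38-fold lower in UBD (1.31 to 1.46). Fibroblasts had 81.9 CPM (68.7 to 96.9) of Il6st in UBD and 95.2 CPM (78.4 to 114) in control, overlapping intervals. T cells were at the low end, with 1 Il6st UMI in 228 UBD cells and 9 in 219 control cells. Il11ra1 (ENSMUSG00000073889, chromosome 4, 41699989 to 41769474, plus strand), the chain that binds IL-11, was 389 CPM (360 to 420) in UBD and 321 CPM (289 to 355) in control fibroblasts, and was the only receptor chain higher in UBD fibroblasts beyond counting error (1.21-fold, 1.07 to 1.38). After thinning, 28.9% of UBD and 27.0% of control fibroblasts had an Il11ra1 UMI, a difference of 1.95 points whose interval reached from -8.09 to 11.7. Of the fibroblasts' Il11ra1 UMIs, 3 cells held 9.60% in UBD and 20.5% in control. In tumour cells Il11ra1 was 28.1 CPM in UBD and 41.9 CPM in control, 1.49-fold lower (1.44 to 1.55), just under the 1.5-fold limit used for counts below. In macrophages no difference in Il11ra1 was detectable at this depth, with 21.3 CPM (18.7 to 24.3) in UBD and 21.1 CPM (17.9 to 24.7) in control and a ratio of 1.01 (0.823 to 1.25). The near-identical copies of Il11ra1 (Il11ra2, Gm13305, Gm13306) had at most 2 UMIs each in a library, while Il11ra1 had 5684 in UBD and 6429 in control. Il11ra1 in monocytes was 43.2 CPM in UBD and 9.22 CPM in control, but its 20 UMIs in the UBD class came from 2 of 144 cells.

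Il6ra (ENSMUSG00000027947, chromosome 3, 89864059 to 89913196, minus strand), the IL-6 binding chain, was lower in UBD in tumour cells (8.98 CPM in UBD and 18.4 CPM in control, 2.05-fold, 1.92 to 2.19) and in macrophages (28.1 CPM and 50.9 CPM, 1.81-fold, 1.55 to 2.11). In both libraries macrophages and monocytes had the highest Il6ra levels, and the UBD monocytes at 32.4 CPM (18.1 to 53.4) could not be told from UBD macrophages at this depth. Osmr (ENSMUSG00000022146, chromosome 15, 6813577 to 6874969, minus strand), the oncostatin M receptor, was 10.7 CPM in UBD and 20.7 CPM in control tumour cells, 1.93-fold lower (1.82 to 2.05). In fibroblasts Osmr was 62.0 CPM (50.6 to 75.2) in UBD and 65.7 CPM (51.9 to 82.0) in control. Macrophages had 11 Osmr UMIs in UBD and 15 in control, 9.44% and 9.73% of the tumour level. T cells had none in either library, with intervals up to 4.32 CPM in UBD and 3.34 CPM in control. Lifr (ENSMUSG00000054263, chromosome 15, 7090614 to 7197489, plus strand), the LIF receptor, was 18.9 CPM in UBD and 25.1 CPM in control tumour cells, 1.33-fold lower (1.27 to 1.40), and 11.1 CPM and 16.2 CPM in macrophages. Tumour cells with UMIs of both Il11ra1 and Il6st made up 10.4% (9.75 to 11.1) of the UBD and 21.2% (20.1 to 22.3) of the control class, at unequal depth. In fibroblasts these shares were 33.3% (26.4 to 40.9) in UBD and 36.6% (28.7 to 45.1) in control.

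Socs3 (ENSMUSG00000053113, chromosome 11, 117966079 to 117970047, minus strand), the feedback inhibitor of gp130 signalling, was 64.1 CPM (62.8 to 65.3) in UBD and 132 CPM (130 to 134) in control tumour cells, 2.06-fold lower in UBD (2.01 to 2.11). A Socs3 UMI was found in 43.6% of UBD and 66.9% of control tumour cells, and after thinning in 6.09% (5.58 to 6.64) and 14.8% (13.9 to 15.8). The difference was smaller in cells limited by Gm42418. In tumour cells with Gm42418 under 2000 CPM (6546 UBD and 1958 control cells) the log2 ratio was -0.42 in place of -1.04, while that of Il11 was -3.35 in place of -3.30. Macrophages had a higher Socs3 level than tumour cells, 265 CPM (256 to 275) in UBD and 298 CPM (286 to 311) in control, 1.12-fold lower in UBD (1.06 to 1.19). This is a log2 ratio of -0.17, near the median of -0.11 over all genes in macrophages. Monocytes had 147 CPM (114 to 186) in UBD and 225 CPM (213 to 238) in control, and T cells 68.0 CPM (51.6 to 87.8) and 50.7 CPM (38.3 to 65.8). Fibroblasts had 193 CPM (173 to 216) in UBD and 289 CPM (259 to 321) in control, 1.49-fold lower (1.28 to 1.75). The highest Socs3 level of the control classes was in the 28 endothelial cells, where it was 145 CPM (79.4 to 244) in UBD and 483 CPM (394 to 586) in control, from 14 and 103 UMIs.

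Of the 10 members, 7 were at least 1.5-fold lower in UBD tumour cells and 0 were higher, where 20.8% of all 15353 genes with 20 or more summed UMIs were lower and 9.10% were higher. The median log2 ratio of the members was -1.04, and that of all genes -0.05. Since the family was chosen with the tumour cell results known, nothing is read from this count. In tumour cells with Gm42418 under 2000 CPM, 6 of 10 were lower (all genes 14.9% lower, 11.0% higher), with Socs3 no longer among them. In macrophages 4 of 10 were lower and 0 higher (20.8% and 9.07% of 11202 genes), and the 4 were Il11, Lif, Il6ra and Osmr, of which Osmr has an interval that spans 1 (0.855- to 4.79-fold lower) and Il11 rests on 2 and 23 UMIs. The share of members called in macrophages is read as no more than the background. With cells of 2 classes kept, the log2 ratio of Lif in macrophages was -2.01 in place of -0.77. In the mixed monocyte class 8 members entered, of which 4 were lower and 2 higher (26.5% and 22.9% of genes). The higher ones were Il11ra1, with its 20 UBD UMIs in 2 cells, and Lifr, with 8 UBD UMIs and a log2 ratio of -0.33 in place of 0.60 with cells of 2 classes kept. Of the lower ones, Lif and Il6ra had intervals that span 1. In fibroblasts 9 entered, of which 1 was lower (Il6ra, 9.64 CPM in UBD and 23.6 CPM in control) and 2 were higher (Il6, Lif), beside 16.6% and 12% of genes. T cells had 2 members with enough UMIs, of which 0 were lower and 1, Osm, was higher (12.8% and 11.1% of genes), and its log2 ratio was -0.40 in place of 1.37 with doublets kept. Endothelial cells had 3, of which 2, Il6 and Socs3, were lower and 0 higher (21.9% and 22.0%). Il6 there had 3 UMIs in UBD and 20 in control, and an interval that spans 1. Gm42418 was lower in UBD in the host classes too, being 2001 CPM in UBD and 9239 CPM in control fibroblasts. Its part in the ratios of the host classes, which went both ways, was not tested.

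**Figure D3:**
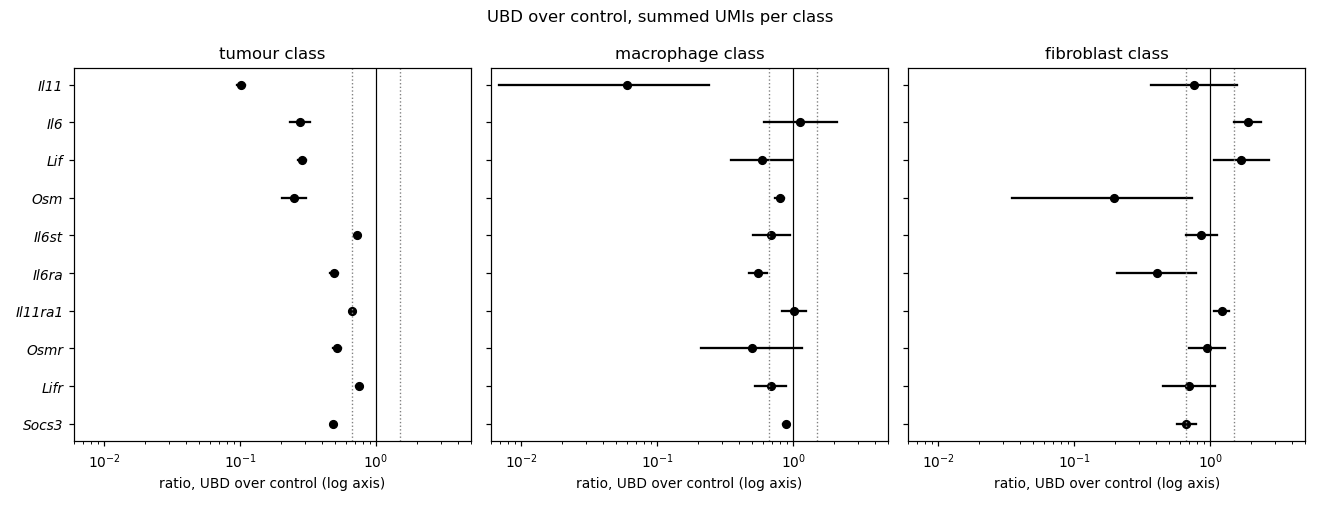
Ratio of UBD over control for each member in tumour cells, macrophages and fibroblasts, on a log axis with 95% counting intervals; the solid line marks 1 and the dotted lines 1.5-fold either way. In tumour cells all points lie left of 1, with Il11 9.86-fold lower, while Il6 (1.89-fold) and Lif (1.69-fold) lie right of 1 in fibroblasts.

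The tumour class pools cell states that the libraries hold in unlike shares, so Il11, Lif and Socs3 were followed in tumour cells with and without 2 or more UMIs of 5 markers. Cxcl10, an interferon-induced chemokine, marked 18.6% of UBD and 76.4% of control tumour cells. Serpinb2 marked 0.952% and 7.56%, H19 20% and 4.78%, Krt18 12.4% and 3.16%, and the cycling marker Mki67 17.2% and 24.0%. Il11 was lower in the UBD library in each of these 10 groups of cells. In Cxcl10-positive cells it was 10.1 CPM in UBD and 67.4 CPM in control, and in Cxcl10-negative cells 6.19 CPM and 74.4 CPM. In Serpinb2-positive cells it was 3.46 CPM in UBD and 90.3 CPM in control, from 9 and 1394 UMIs. Lif was lower in UBD in each group as well, with the smallest gap in Krt18-positive cells (5.96 CPM in UBD, 10.9 CPM in control).

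Socs3 differed between the states. In Krt18-positive tumour cells it was 62.5 CPM in UBD and 64.5 CPM in control, a ratio of 0.969 (0.866 to 1.09). This group held 1001 UBD and 168 control cells, with median depths of 21280 and 31722.5 UMIs. Krt18-negative cells had 16466 UMIs in UBD and 19095 in control, and depth was not held equal. In H19-positive cells Socs3 was 76.4 CPM in UBD and 195 CPM in control. Cxcl10-positive cells had more Socs3 than Cxcl10-negative cells in both libraries, 100 CPM against 54.8 CPM in UBD and 144 CPM against 83.6 CPM in control. Within either group the UBD level was 0.696 (0.670 to 0.723) or 0.655 (0.624 to 0.688) of control, nearer to 1 than the ratio of 0.486 over all tumour cells.

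**Figure D4:**
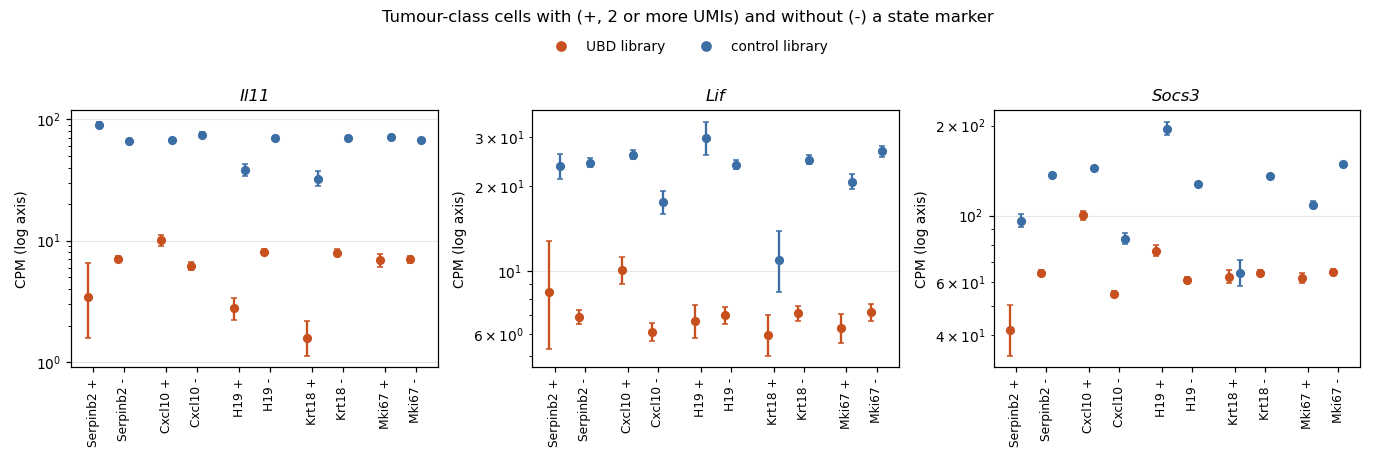
Il11, Lif and Socs3 in tumour cells with (+) and without (-) 2 or more UMIs of 5 state markers, in CPM on log axes that differ between panels, UBD left of control, with 95% Poisson bars. Il11 and Lif lie lower in UBD in all 10 groups, while Socs3 in Krt18-positive cells (1001 UBD and 168 control cells, at unequal depth) is 62.5 CPM in UBD and 64.5 CPM in control.

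Most genes that carry the gp130 signal differed little in tumour cells. The 11 signalling genes listed had a median log2 ratio of -0.14. At 1.5-fold, 1 of them was lower and 0 were higher, beside 20.8% and 9.10% of all genes. Jak1, a kinase bound to gp130, was 81.5 CPM in UBD and 94.5 CPM in control, Stat3 71.6 CPM and 80.7 CPM, and Grb2 68.4 CPM and 75.2 CPM. Macrophages had 3 of 11 lower and 0 higher, beside 20.8% and 9.07% of all genes, Stat3 being 97.7 CPM in UBD and 144 CPM in control.

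Of 20 genes listed as STAT3 targets and feedback genes, 9 were lower and 0 higher in UBD tumour cells, beside 20.8% and 9.10% of all genes, with a median log2 ratio of -0.53. Lcn2, which encodes the iron carrier lipocalin 2, was 9.53 CPM in UBD and 61.8 CPM in control. The acute phase gene Saa3 was 2.23 CPM in UBD and 14.6 CPM in control. Junb was 928 CPM in UBD and 1677 CPM in control, and Myc 577 CPM and 859 CPM. Fos, which dissociation also induces, was 1279 CPM in UBD and 1257 CPM in control. In tumour cells with Gm42418 under 2000 CPM, 5 of 20 were lower and 0 higher, beside 14.9% and 11.0% of all genes in those cells. Lcn2 and Saa3 were among the 5 and Junb was not. Other pathways induce many of these genes too. Macrophages had 9 of 20 lower and 2 higher, beside 20.8% and 9.07% of all genes, with Junb at 1184 CPM in UBD and 1745 CPM in control, and Fos at 1094 CPM and 1768 CPM. Fibroblasts had 7 of 20 lower and 0 higher, beside 16.6% and 12% of all genes, with Timp1, a protease inhibitor, at 1521 CPM in UBD and 1175 CPM in control, a ratio under 1.5.

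Genes that induce the ligands went both ways in tumour cells. Of 14 such genes 5 were lower and 2 higher in UBD, beside 20.8% and 9.10% of all genes, and both higher ones were Tgfb1 (77.4 CPM in UBD and 45.4 CPM in control) and Tgfb3 (15.0 CPM and 8.06 CPM), named after their values were seen. TGF-beta is a known inducer of Il11. Ptgs2, which makes prostaglandin precursors, was 41.0 CPM in UBD and 177 CPM in control. Il1b was 6.39 CPM in UBD and 22.9 CPM in control tumour cells, and Tnf 0.371 CPM and 1.58 CPM. In macrophages Il1b was 1333 CPM in UBD and 1084 CPM in control, while Tnf was 45.1 CPM in UBD and 166 CPM in control, with 4 of 14 lower and 1 higher (20.8% and 9.07% of all genes). Il1b and Tnf were thus far lower in tumour cells than in macrophages, and the part of macrophage RNA in their tumour levels was not tested. The AP-1 subunit gene Jun was 1322 CPM in UBD and 1892 CPM in control tumour cells. The AP-1 motif shown above in Il11 and Lif says nothing of which subunit binds there.

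Of 12 other family ligands and receptors 6 had 20 UMIs or more in tumour cells, of which 2 were lower and 1 higher, beside 20.8% and 9.10% of all genes. The 2 lower ones, named after their values were seen, had few UMIs in UBD and control, Il27 19 and 39 and Ebi3 15 and 43. The part of macrophage RNA in them was not tested. Clcf1 was 3.68 CPM in UBD and 4.11 CPM in control, and Ctf1, which encodes cardiotrophin 1, 2.93 CPM and 2.63 CPM. In macrophages the 3 that entered were all lower in UBD (20.8% of all genes), though Clcf1, with 13 and 16 UMIs, had an interval that spans 1. Ebi3, the shared chain of IL-27 and IL-35, was 13.4 CPM in UBD and 44.2 CPM in control. Of the proteases that shed IL-6 receptor, Adam10 was 52.0 CPM in UBD and 33.6 CPM in control tumour cells (1.55-fold higher), and Adam17 37.1 CPM and 34.5 CPM. In tumour cells with Gm42418 under 2000 CPM, 0 of these 2 were higher by 1.5-fold, beside 11.0% of all genes. In those with under 2 Cxcl10 UMIs the count was also 0, beside 11.3%.

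**Figure D5:**
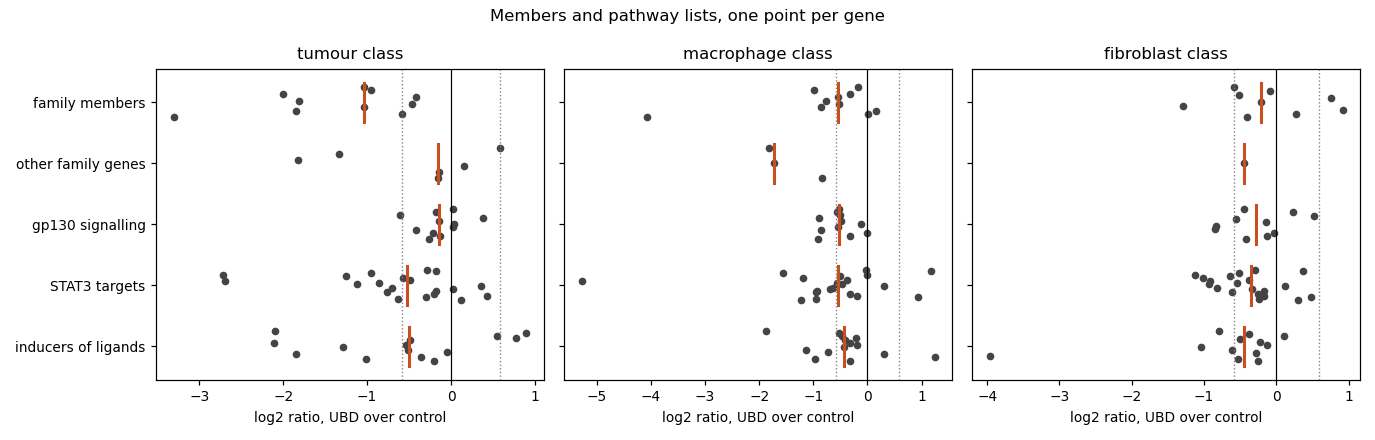
Log2 ratio of UBD over control for each gene of the family and of 4 pathway lists with 20 or more summed UMIs, in tumour cells, macrophages and fibroblasts; each point is a gene, the orange bar the median and the dotted lines 1.5-fold. In tumour cells the median is -1.04 for the family, -0.53 for STAT3 targets and -0.14 for gp130 signalling.

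Over the 12 sums of class and library, the genes whose log2(CPM + 1) was most like that of Il11 among 5667 genes were Crabp1 (Pearson r = 0.94), Phlda1 (0.92) and Nr2f1 (0.92). Those most like Socs3 were Clic4 (0.95), Dusp1 (0.95) and Zfp36 (0.92). The sums share libraries and depth, so these values describe the pattern and carry no test.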

How the data were processed

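Both libraries were prepared with the Chromium single-cell 3′ v3 kit, per the labels' protocols. The authors deposited UMI counts per gene and barcode, 1 sparse matrix per library. The submitters' processing notes name Cell Ranger, STAR and mm10, and per the file headers the matrices were written by software version 3.1.0. Neither the annotation nor the rule for calling cells is named there.

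Cells needed 200 genes, 500 UMIs and no more than 20% mitochondrial UMIs, which 13619 of 14158 UBD and 14353 of 14890 control barcodes met. Scrublet in scanpy (expected rate 0.1) marked 562 UBD (4.13%) and 530 control (3.69%) cells as doublets. After their removal 13057 UBD and 13823 control cells were kept, with 190086511 and 164694644 UMIs. A class needed 3 UMIs of its marker (2 for Cd3e and Cdh5) and 200 CPM in the cell. Cells of 2 classes were left out, Cd3e overrode Ly6c2, and Dcn decided only cells with no other marker, since MC38 cells carry Dcn (249 CPM in UBD and 389 CPM in control tumour cells). These limits came from the spread of the markers over cells.

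UMIs were summed per class and scaled to CPM. No test was run, since each group is 1 library. Levels have exact Poisson, shares Clopper-Pearson, share differences Newcombe-Wilson and ratios exact conditional binomial intervals. Genes with 20 summed UMIs entered counts at 1.5-fold. All members are described. Of the list genes, the 3 with most UMIs in a class and those past 3-fold with 100 UMIs could be named. The members and lists were chosen with earlier results of these data known. The values of 1 gene of the signalling list are not reported here. Coordinates are from GENCODE vM21 (GRCm38), which matched 31011 of 31053 gene IDs. Only the ratio intervals were tested on simulated data, which were Poisson counts with no variation between cells or animals. Versions were Python 3.11.15, scanpy 1.11.5, numpy 2.4.6, scipy 1.17.1 and pandas 2.3.3.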

Additional observations from a re-analysis of the deposited data

Results flagged for a closer look

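For 4 members the ratio of UBD over control lay above 1 in some classes and below 1 in others, counting classes with 5 or more UMIs in each library and an interval that did not span 1. With 1 library per group the difference between classes was not tested. The log2 ratio of Il6 was 0.91 in fibroblasts and -1.85 in tumour cells. That of Lif was 0.75 in fibroblasts, -1.81 in tumour cells and -0.77 in macrophages. That of Osm was 1.37 in T cells, from 18 and 9 UMIs and -0.40 with doublets kept, and -2.0 in tumour cells, -0.33 in macrophages and -1.12 in monocytes. That of Il11ra1 was 2.23 in monocytes, where 2 UBD cells held all 20 UMIs, 0.28 in fibroblasts and -0.58 in tumour cells.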

How the results depend on the processing

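No paired analysis was possible because each group has 1 library. Values below are log2 ratios of UBD over control unless stated. Over 39 ratios and 376 alternative values, 332 stayed within the counting interval of the reported value, 42 moved outside it, and 2 changed sign although the reported ratio was past 1.5-fold. Those 2 were Osm in T cells with doublets kept (-0.40 in place of 1.37) and Lifr in monocytes with cells of 2 classes kept in both (-0.33 in place of 0.60). In tumour cells, Il11 was -3.59 without cells with 2 or more Cxcl10 UMIs and -3.12 as the mean of the cells' own CPM, in place of -3.30. Lif was -1.53 without Cxcl10 cells and -1.64 in cells with Gm42418 under 2000 CPM, in place of -1.81. Socs3, -1.04 as reported, was -0.98 with 2 marker UMIs more, -0.81 with the stricter cell filter, -0.61 without Cxcl10 cells, -0.42 with Gm42418 under 2000 CPM and -1.58 as the mean of the cells' own CPM. Osm in macrophages was -0.44 with cells of 2 classes kept and -0.47 as the mean of the cells' own CPM, in place of -0.33. Osm in monocytes was -1.80 with 2 marker UMIs more, -0.74 with the stricter filter and -0.36 without cells with Cd3d, Cd3g, Cd3e or Siglech, in place of -1.12. The difference in the share of tumour cells with an Il11 UMI was -2.17 points thinned to 500 UMIs, -5.64 thinned to 2000 and -17.3 unthinned, in place of -3.21. That of macrophages with an Osm UMI was -1.60 at 500 UMIs and -1.41 unthinned, in place of -5.91. Il11 in Serpinb2-positive tumour cells was -3.60 at 1 or more Serpinb2 UMIs, in place of -4.71. STAT3 targets lower in tumour cells numbered 4 at a ratio of 2 and 5 with Gm42418 under 2000 CPM (14.9% of all genes), in place of 9 (20.8%). The causes of these shifts were not tested.

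Scaling by the median ratio subtracted a median log2 ratio of -0.11 in macrophages and 0.12 in monocytes. It therefore raised the ratios of macrophages and lowered those of monocytes. Among 39 ratios, 11 changed sign under some alternative. The limit on Gm42418 was not run in the host classes, where it left 6 control macrophages, 18 control monocytes and 6 control fibroblasts. The alternatives on Gm42418, shared barcodes and T cell or Siglech UMIs, and the limited counts, were chosen after seeing the data.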

Other observations

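Cells outside the 6 classes also carried family transcripts. Cells with 3 or more UMIs of both Acp5 and Ctsk, genes of osteoclasts and of some macrophages, numbered 697 in the UBD library and 99 in the control library. Their Lif level was 18.2 CPM (15.5 to 21.2) in UBD and 19.6 CPM (13.3 to 27.9) in control, and in UBD it lay above the tumour and macrophage levels beyond counting error. Their Osm level was 17.4 CPM (14.8 to 20.4) in UBD and 31.0 CPM (23.0 to 41.0) in control, and their Socs3 level 17.0 CPM (14.4 to 19.9) and 28.5 CPM (20.8 to 38.1). Cells with 5 or more UMIs of both S100a8 and S100a9, genes of neutrophils, numbered 20 in UBD and 133 in control. They had 4 Osm UMIs in UBD and 55 in control, or 207 CPM (56.4 to 529.5) and 224 CPM (168 to 291). They had 0 Il11 UMIs in UBD, with an interval up to 191 CPM, and 14 in control, or 56.9 CPM (31.1 to 95.5). The control interval overlaps the level of control tumour cells. Cells with a UMI of Ncr1 or Klrb1c, genes of natural killer cells, and none of Cd3e numbered 46 in UBD and 293 in control. They had 0 Il11 UMIs in UBD, with an interval up to 26.7 CPM, and 49 in control, or 31.4 CPM (23.2 to 41.5). These intervals overlap. The part of RNA from tumour cells in these levels was not tested.

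Cells that passed both the C1qa and the Ly6c2 rule, and neither the Cd3e nor the Cdkn2a rule, numbered 21 in UBD and 617 in control. Their Osm level was 170 CPM (106 to 261) in UBD and 302 CPM (282 to 323) in control, and the control value lay between control macrophages and control monocytes. Their Socs3 level was 203 CPM (131 to 300) in UBD and 262 CPM (244 to 281) in control.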
